A study of Mus musculus with 12 samples.

Results

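The genes described here are 10 transcription factor and keratin genes of the first extraembryonic lineages of the mouse embryo, 7 of the trophectoderm (Cdx2, Gata3, Eomes, Tfap2c, Tead4, Krt8 and Krt18) and 3 of the primitive endoderm (Gata6, Gata4 and Sox17). They were chosen by name from the 22619 gene symbols of the deposited tables, and each was listed at 1 locus in each of the 12 libraries. The libraries were made by Smart-seq2, a full-length cDNA method for small amounts of polyadenylated RNA, here from lysate, and the series title speaks of single cells. Embryos of strain C57BL/6 gave 3 groups: Dcaf11 knock out titled as arrest (KO arrest, n = 3), Dcaf11 knock out not so titled (KO embryo, n = 3) and wild type (control embryo, n = 2). Embryonic stem (ES) cells of strain 129Sv, cultured cells derived from the inner cell mass, gave 2 groups: Dcaf11 knock down (KD ESC, n = 2) and wild type (control ESC, n = 2). The Dcaf11 protein picks substrates for a cullin ubiquitin ligase. The labels give no stage, sex or cell number and no promoter, allele or knockdown reagent, and do not tell whether 2 libraries of a group had different source embryos or cultures, so the spread behind each p-value is that among libraries and may be technical.

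The trophectoderm is the outer epithelium of the blastocyst and forms the placenta, and the primitive endoderm is the layer of the inner cell mass that faces the cavity and forms the yolk sac. In outer cells the DNA-binding factor TEAD4, with its cofactor YAP1 or WWTR1, is known to switch on Cdx2 and Gata3, while in inner cells the Hippo kinases LATS1 and LATS2, helped by angiomotins, keep the cofactors out of the nucleus. In the inner cell mass GATA6 is known to mark primitive endoderm precursors first, and SOX17 and GATA4 follow.

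The libraries were uneven. The coverage of a gene at 1 FPKM (reads scaled to gene length and library size), which is proportional to depth, ran from 0.373 to 2.01, and the number of genes at 1 FPKM or more ran from 6573 to 12061. Control embryo 1 was the deepest library and had the fewest such genes, so that it stood apart from control embryo 2 with 10291. Dcaf11 itself was at 4.43, 0.422 and 6.02 FPKM in the KO arrest libraries, 3.99, 2.84 and 0.184 FPKM in the KO embryo libraries, and 2.82 and 14.3 FPKM in the control embryo libraries, so the embryo groups overlapped. The labels do not say which stretch of the gene was removed, so a value for the whole gene does not check the knock out labels, and the groups below are named by those labels alone. Dcaf11 was at 1.69 and 1.83 FPKM in KD ESC libraries, below the 6.48 and 4.52 FPKM of control ESC libraries (log2 fold change −1.22 ± 0.21 SE, adjusted p = 0.0521).

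**Figure D1:**
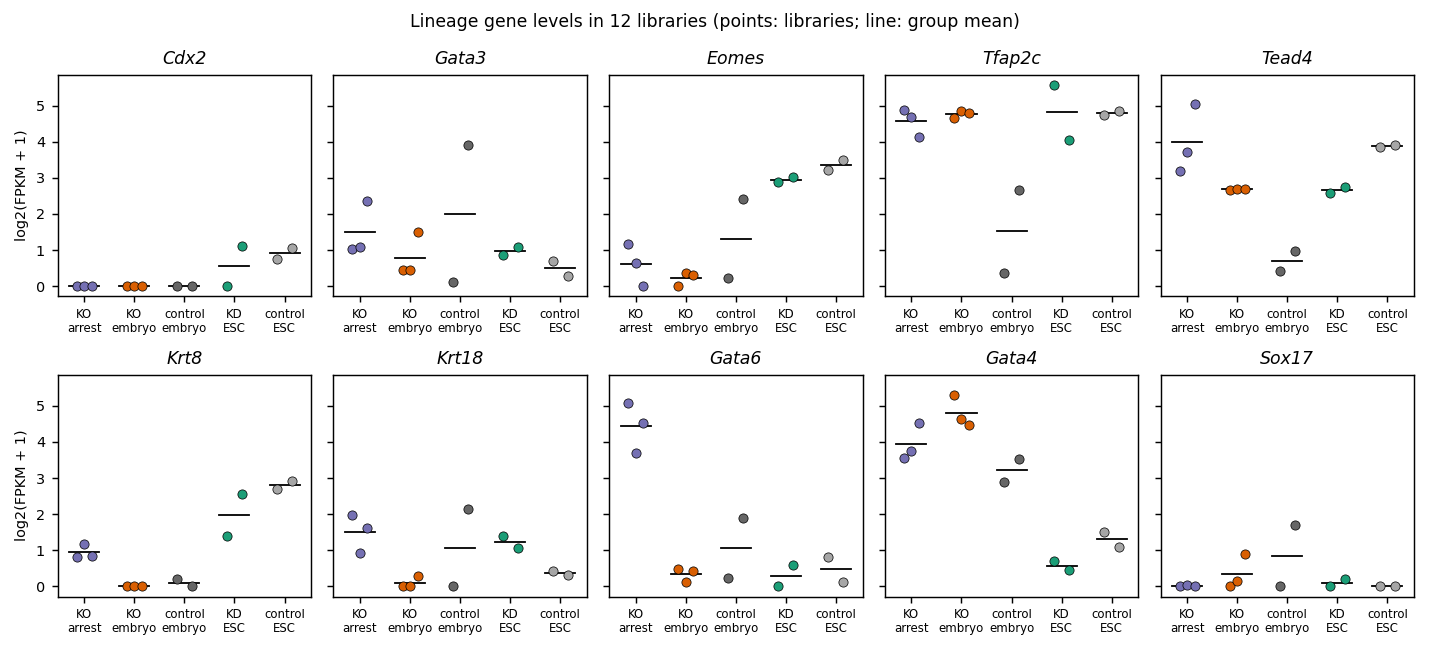
Levels of the 10 genes on the log2(FPKM + 1) scale. Each point is a library and each line a group mean. Gata6 is high in the 3 KO arrest libraries, at 12.02 to 32.9 FPKM, Gata4 is present in all 8 embryo libraries, and Cdx2 lies on the zero line in all 8.

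Cdx2, the caudal-type homeobox gene that specifies trophectoderm, lies at chr5:148112476-148118825 on the minus strand of mm9. It was listed at 0 in all 8 embryo libraries, that is in 3 KO arrest, 3 KO embryo and 2 control embryo libraries. In KD ESC libraries Cdx2 was at 0 and 1.17 FPKM, against 0.671 and 1.10 FPKM in control ESC libraries. No embryo group therefore showed this trophectoderm gene in these tables, and no fold change can be given for it between embryo groups.

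Gata3, a zinc finger factor that acts beside Cdx2 in trophectoderm, lies at chr2:9778705-9800227 on the minus strand. Gata3 was at 1.05, 1.10 and 4.16 FPKM in KO arrest libraries, 0.359, 0.360 and 1.81 FPKM in KO embryo libraries, and 0.0869 and 13.9 FPKM in control embryo libraries. The control embryo libraries held both the lowest and the highest of these 8 values, so the groups overlapped. Eomes (chr9:118387307-118395250, plus strand), a T-box factor needed for trophoblast proliferation, was at 1.25, 0.571 and 0 FPKM in KO arrest libraries, 0, 0.285 and 0.233 FPKM in KO embryo libraries, and 0.160 and 4.28 FPKM in control embryo libraries. As for Gata3, control embryo 2 held the highest value and control embryo 1 was among the low libraries.

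Krt8 and Krt18 encode the keratins that pair into the filaments of simple epithelia such as trophectoderm, and they lie 23873 bases apart, Krt8 at chr15:101827142-101834773 on the minus strand and Krt18 at chr15:101858647-101862457 on the plus strand. Krt8 was at 0.774, 1.24 and 0.799 FPKM in KO arrest libraries, listed at 0 in all 3 KO embryo libraries, and at 0.1498 and 0 FPKM in control embryo libraries. Krt18 was at 2.94, 0.898 and 2.05 FPKM in KO arrest libraries, 0, 0 and 0.230 FPKM in KO embryo libraries, and 0 and 3.45 FPKM in control embryo libraries. Each keratin was thus lower in every KO embryo library than in any KO arrest library. Both have processed pseudogenes, and no source used here tells how reads were shared with those, so the low keratin values are uncertain.

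Promoter sequence was available from RefSeq (assembly GRCm38.p6) for 5 of the 10 genes, as the 250 bases before the annotated start. It is shown for the 4 of them that held a match to a motif of another gene in the set. The motifs searched on both strands were AGATAA (bound by GATA factors, capitals in Krt8), GCCNNNGGC (bound by AP-2 factors such as the Tfap2c product, capitals in the others) and GGAATG (bound by TEAD factors, no match). Cdx2 and Gata3 are shown as TEAD4 target genes, Cdx2 at 0 in every embryo library and Gata3 at 13.9 FPKM in control embryo 2 and at most 4.16 FPKM in the other 7, and Krt8 and Krt18 as a keratin pair.
Cdx2 promoter, chr5:147307250-147307499, minus strand: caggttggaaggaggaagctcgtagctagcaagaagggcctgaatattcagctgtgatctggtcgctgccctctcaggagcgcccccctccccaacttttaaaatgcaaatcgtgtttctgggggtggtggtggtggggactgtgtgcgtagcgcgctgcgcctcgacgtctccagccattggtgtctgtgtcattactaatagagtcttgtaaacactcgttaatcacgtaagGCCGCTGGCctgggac
Gata3 promoter, chr2:9878601-9878850, minus strand: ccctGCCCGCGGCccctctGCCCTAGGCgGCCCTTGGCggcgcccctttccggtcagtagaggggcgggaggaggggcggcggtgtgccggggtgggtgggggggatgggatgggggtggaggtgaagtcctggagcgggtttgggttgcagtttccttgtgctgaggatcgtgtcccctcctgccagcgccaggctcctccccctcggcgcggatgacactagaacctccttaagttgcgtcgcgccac
Krt8 promoter, chr15:102004343-102004592, minus strand: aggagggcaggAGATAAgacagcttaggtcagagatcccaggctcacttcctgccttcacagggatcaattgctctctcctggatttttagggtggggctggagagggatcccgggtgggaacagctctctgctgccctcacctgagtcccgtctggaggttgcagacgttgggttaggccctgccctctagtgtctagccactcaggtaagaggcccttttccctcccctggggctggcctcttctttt
Krt18 promoter, chr15:102027966-102028215, plus strand: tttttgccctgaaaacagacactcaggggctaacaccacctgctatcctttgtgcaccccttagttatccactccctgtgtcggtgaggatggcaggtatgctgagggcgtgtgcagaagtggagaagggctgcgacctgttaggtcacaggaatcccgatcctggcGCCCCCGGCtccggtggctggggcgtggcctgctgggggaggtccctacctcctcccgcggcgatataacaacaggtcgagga
The AP-2 match lay 16 bases before the start of Cdx2 and 83 bases before that of Krt18, and Gata3 had 3 such matches that did not overlap each other. The GATA match of Krt8 lay 239 bases before its start. Of 32851 RefSeq windows of the same length, 13.7% held the AP-2 letters, 9.99% the GATA letters and 12.6% the TEAD letters. A match describes the letters only.

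Tfap2c encodes AP-2 gamma, a factor active from the early cleavage embryo through trophectoderm, and lies at chr2:172375093-172384121 on the plus strand. Tfap2c was at 28.2, 24.9 and 16.4 FPKM in KO arrest libraries, 24.2, 27.7 and 26.6 FPKM in KO embryo libraries, and 0.299 and 5.34 FPKM in control embryo libraries. All 6 knock out libraries lay above both control embryo libraries. Tead4 (chr6:128177161-128250831, minus strand) was at 8.06, 12.2 and 31.9 FPKM in KO arrest libraries, 5.37, 5.40 and 5.47 FPKM in KO embryo libraries, and 0.329 and 0.979 FPKM in control embryo libraries. The 3 groups did not overlap, with KO arrest highest and control embryo lowest.

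Gata6 (chr18:11052508-11085633, plus strand) was at 32.9, 12.02 and 22.1 FPKM in KO arrest libraries, 0.391, 0.0951 and 0.347 FPKM in KO embryo libraries, and 0.181 and 2.74 FPKM in control embryo libraries. Every KO arrest library was above every other embryo library. The mean read coverage of Gata6 was 12.3, 6.29 and 14.6 in KO arrest libraries and under 1 in every KO embryo library (0.229, 0.0939 and 0.457), although coverage at 1 FPKM was 0.373 to 0.659 in KO arrest and 0.585 to 1.32 in KO embryo libraries. Gata4 (chr14:63817752-63864097, minus strand) was at 10.8, 12.4 and 22.0 FPKM in KO arrest libraries, 38.6, 23.9 and 21.1 FPKM in KO embryo libraries, and 6.42 and 10.6 FPKM in control embryo libraries. Gata4 was thus above 6 FPKM in all 8 embryo libraries, including the libraries in which Gata6 was under 1 FPKM. Sox17 (chr1:4481009-4486494, minus strand) was at 0, 0.0240 and 0 FPKM in KO arrest libraries, 0, 0.110 and 0.852 FPKM in KO embryo libraries, and 0 and 2.26 FPKM in control embryo libraries, so no KO arrest library that held Gata6 and Gata4 held Sox17 at more than a trace.

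**Figure D2:**
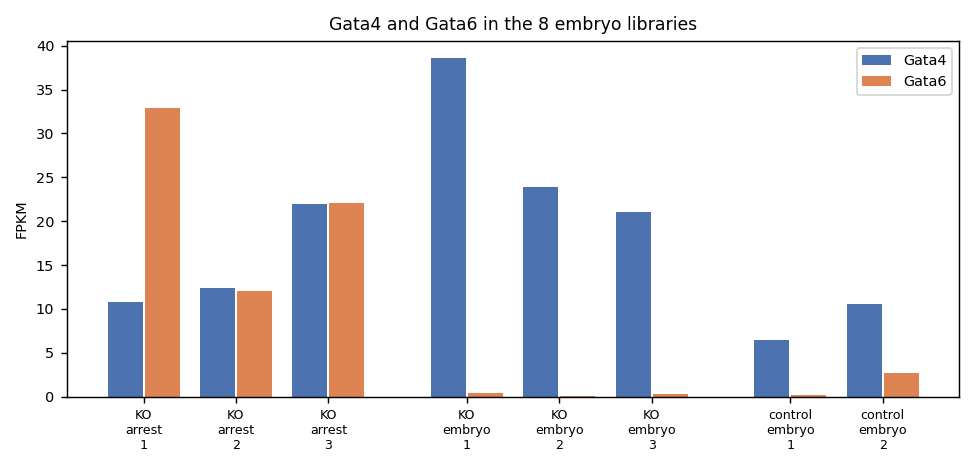
FPKM of Gata4 and Gata6, the primitive endoderm factors, in each embryo library, with 1 bar per gene and library. Gata6 is at 12.02 to 32.9 FPKM in KO arrest libraries and at most 2.74 FPKM in the other embryo libraries, while Gata4 is at 6.42 FPKM or more in all 8.

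The order of the mean levels differed between groups. In KO arrest libraries Tfap2c (23.1 ± 6.12 FPKM, SD), Gata6 (22.3 ± 10.4 FPKM), Tead4 (17.4 ± 12.7 FPKM) and Gata4 (15.1 ± 6.07 FPKM) came first, and neighbours in this order lay within their spread (n = 3 each). KO embryo libraries had Gata4 (27.9 ± 9.43 FPKM) and Tfap2c (26.2 ± 1.76 FPKM) first, within their spread, and then Tead4 at 5.41 ± 0.0493 FPKM, well below both (n = 3 each). Control embryo libraries had Gata4 first, at 8.49 ± 2.92 FPKM (SD, n = 2), and Gata3, Tfap2c, Eomes and Krt18 after it with SDs larger than their means. The number of the 10 genes at 1 FPKM or more was 7, 6 and 6 in KO arrest libraries, 3, 3 and 4 in KO embryo libraries, and 1 and 7 in control embryo libraries.

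**Figure D3:**
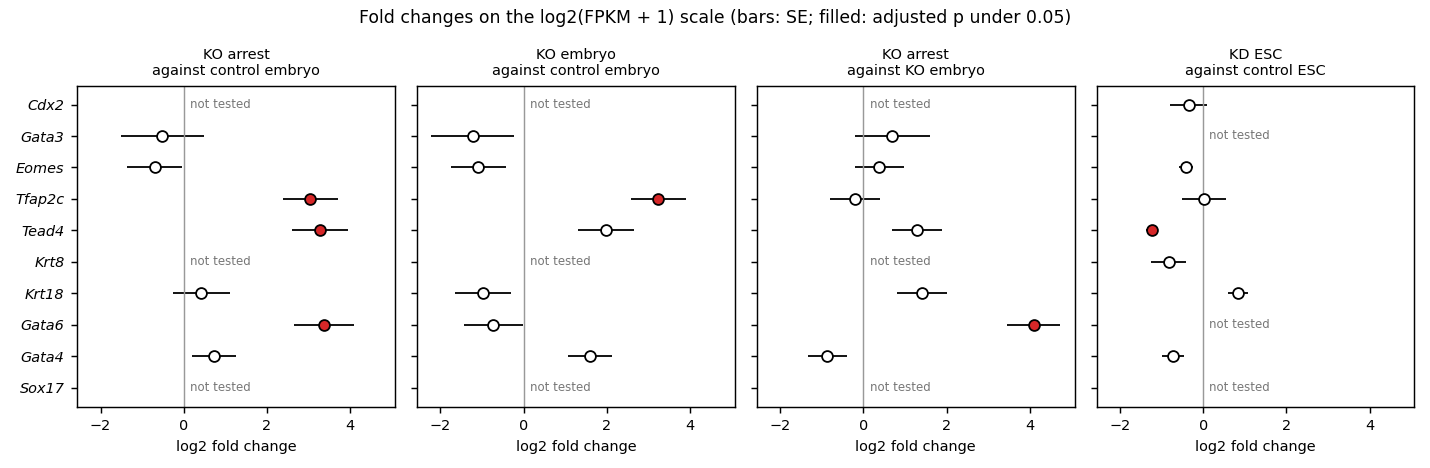
Log2 fold changes of the 10 genes on the log2(FPKM + 1) scale in 4 comparisons, with bars of 1 SE and filled points at an adjusted p under 0.05. Gata6 is called in both KO arrest comparisons, Tfap2c in both comparisons with control embryo, and Tead4 higher in KO arrest against control embryo and lower in KD ESC against control ESC.

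In the libraries labelled KO arrest, set against control embryo, Tead4, Gata6 and Tfap2c were higher. Tead4 averaged 17.4 ± 12.7 FPKM in KO arrest and 0.654 ± 0.460 FPKM in control embryo, a log2 fold change of 3.28 ± 0.67 (SE; adjusted p = 0.00618). Gata6 averaged 22.3 ± 10.4 FPKM in KO arrest and 1.46 ± 1.81 FPKM in control embryo, a log2 fold change of 3.37 ± 0.71 (adjusted p = 0.00737). Tfap2c averaged 23.1 ± 6.12 FPKM in KO arrest and 2.82 ± 3.57 FPKM in control embryo, a log2 fold change of 3.04 ± 0.66 (adjusted p = 0.00829; SD, n = 3 and 2 throughout). Calls were made by limma on log2(FPKM + 1), where the Benjamini-Hochberg adjusted p was under 0.05, among genes that reached 1 FPKM in 2 or more libraries of the fit. The 3 called are among 7 of the 10 genes that passed this filter, where 25.2% of all 11795 genes tested were called, 16.4% higher and 8.87% lower. The median log2 fold change of the 7 was 0.73, against 0.45 over all genes tested.

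The other 4 tested genes were not called in KO arrest against control embryo. Gata4 separated the groups upwards, as 31.3% of all tested genes did, with a log2 fold change of 0.73 ± 0.53 (adjusted p = 0.338). Krt18 had 0.43 ± 0.67 (adjusted p = 0.672), Gata3 −0.52 ± 1.00 (adjusted p = 0.728) and Eomes −0.70 ± 0.66 (adjusted p = 0.468), all with overlapping groups. The signs of Krt18 and Gata3 rested on 1 control library each. Krt18 was −0.65 without control embryo 1 (and −0.67 with the length trend removed). Gata3 was 1.37 without control embryo 2 (and 0.16 with a pseudocount of 0.1). Cdx2, Krt8 and Sox17 did not pass the filter, and Krt8 was higher in all 3 KO arrest libraries than in both control embryo libraries. The 3 calls were kept under all 19 alternatives tried for each, with adjusted p of at most 0.0458. The size of 2 of them rested on the control library: leaving out control embryo 1 gave 1.90 for Tfap2c and 2.54 for Gata6 on the log2 scale, and leaving out control embryo 2 gave 4.18 and 4.20.

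In the libraries labelled KO embryo, set against control embryo, Tfap2c was higher and no other gene of the set was called. Tfap2c averaged 26.2 ± 1.76 FPKM in KO embryo and 2.82 ± 3.57 FPKM in control embryo (SD, n = 3 and 2), a log2 fold change of 3.24 ± 0.66 (adjusted p = 0.0219). Among all genes tested 6.36% were called, 4.86% higher and 1.5% lower, and again 7 of the 10 genes were tested. Tead4 averaged 5.41 ± 0.0493 FPKM in KO embryo and 0.654 ± 0.460 FPKM in control embryo (log2 fold change 1.98 ± 0.67, adjusted p = 0.105), and Gata4 averaged 27.9 ± 9.43 FPKM in KO embryo and 8.49 ± 2.92 FPKM in control embryo (log2 fold change 1.59 ± 0.53, adjusted p = 0.102). Tfap2c, Tead4 and Gata4 separated the groups upwards, as 24.2% of all tested genes did. Gata3 (−1.22 ± 1.00, adjusted p = 0.519), Eomes (−1.09 ± 0.66, adjusted p = 0.370), Krt18 (−0.98 ± 0.67, adjusted p = 0.431) and Gata6 (−0.73 ± 0.71, adjusted p = 0.6001) had log2 fold changes below 0 and overlapping groups. For 3 of these 4 the direction rested on 1 library. Without control embryo 2, Gata3 was 0.67, Krt18 0.10 and Gata6 0.11 on the log2 scale. The median over the 7 was −0.73, against 0.31 over all genes tested.

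The Tfap2c call in KO embryo libraries was lost without a filter (adjusted p = 0.0568), with the 2 groups alone in the fit (0.0623), with weights per library (0.0614), with a block for replicate number (0.0620) and without KO embryo 1, 2 or 3 (0.0789, 0.0664 and 0.0801). Leaving out control embryo 1 gave 2.10, and leaving out control embryo 2 gave 4.38 on the log2 scale. Both comparisons above use the same control embryo libraries, so the higher Tfap2c in both is not 2 independent results.

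Between the libraries labelled KO arrest and KO embryo, which share a genotype label and no control library, Gata6 was the gene of the set that was called. It averaged 22.3 ± 10.4 FPKM in KO arrest and 0.278 ± 0.160 FPKM in KO embryo (SD, n = 3 each), an 80.4-fold ratio of means and a log2 fold change of 4.09 ± 0.64 with the pseudocount of 1, which understates it (adjusted p = 0.00588). Among all genes tested 8.58% were called, 4.93% higher and 3.65% lower. The call was kept under all 19 alternatives, with log2 fold changes of 3.77 to 5.89 and adjusted p of at most 0.0317.

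The companion gene Gata4 went the other way in mean, 15.1 ± 6.07 FPKM in KO arrest and 27.9 ± 9.43 FPKM in KO embryo, with overlapping groups and no call (log2 fold change −0.86 ± 0.47, adjusted p = 0.277). Tead4 (1.30 ± 0.60, adjusted p = 0.197) and Krt18 (1.40 ± 0.60, adjusted p = 0.169) separated the groups upwards without being called, as did the untested Krt8. Separation upwards was seen in 19.4% of all tested genes. Tfap2c did not separate the groups (−0.20 ± 0.59, adjusted p = 0.862), and neither did Gata3 (0.70 ± 0.89, adjusted p = 0.673) or Eomes (0.39 ± 0.59, adjusted p = 0.729). The median over the 7 tested genes was 0.70, against 0.07 over all genes tested.

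Genes of other cell types moved with these groups. The summed level of 8 fibroblast markers was 0.0513 to 2.90 FPKM in KO arrest libraries, 59.4 to 93.2 FPKM in KO embryo libraries, and 17.2 and 67.3 FPKM in control embryo libraries, and that of 7 blood markers was 0 to 9.31 FPKM in KO arrest, 232.7 to 360.4 FPKM in KO embryo, and 78.1 and 194.8 FPKM in control embryo libraries. Gata4 was highest on average in the KO embryo libraries, in which 6 of the 8 fibroblast markers were at 1 FPKM or more. Control embryo 1 had 4 of the 8 at that level with Gata4 at 6.42 FPKM, and control embryo 2 had 7 with Gata4 at 10.6 FPKM. The part of such cells in the Gata4 difference between KO embryo and control embryo was not tested. In KO arrest libraries at most 1 fibroblast marker and at most 1 blood marker reached 1 FPKM. Gata6 was at 12.02 to 32.9 FPKM and Gata4 at 10.8 to 22.0 FPKM in them. The part of such cells in these levels was not tested either.

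The summed level of 9 oocyte genes, whose RNA is stored in the egg, was 493.4 to 756.2 FPKM in KO arrest libraries, 7247 to 10482 FPKM in KO embryo libraries, and 21168 and 27843 FPKM in control embryo libraries. A sum follows its most abundant genes. Of the 9, 8 were tested, and limma called 3 lower in KO arrest than in control embryo, where 8.87% of all genes were. The median log2 fold change of the 8 was −1.95, against 0.45 over all genes tested. In KO embryo against control embryo 1 of the 8 was called lower, where 1.5% of all genes were. The median there was −0.40, against 0.31. How these calls held under the alternatives was not examined. The part of the oocyte genes in the higher Gata6, Tead4 and Tfap2c of KO arrest libraries was not tested, nor was that of stage, which the labels do not give. Summed cumulus and granulosa markers were at 0 to 2.65 FPKM in KO arrest, 1.33 to 5.95 FPKM in KO embryo, and 16.1 and 17.1 FPKM in control embryo libraries. Stratified epithelium markers summed to between 3.00 and 13.1 FPKM in the embryo libraries. In libraries of whole lysate, a different number of cells of a type and a different amount of RNA per cell cannot be told apart.

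**Figure D4:**
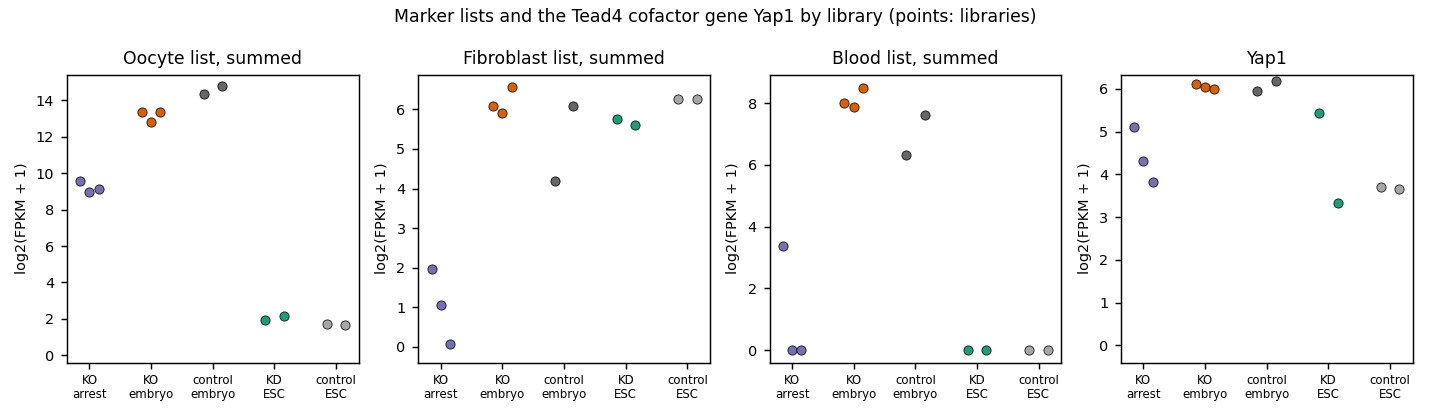
Summed levels of the oocyte, fibroblast and blood marker lists, and the level of Yap1, the TEAD4 cofactor gene, on the log2(FPKM + 1) scale, with 1 point per library. The KO arrest libraries are the lowest embryo libraries in all 4 panels, and Yap1 is at 13.1 to 33.5 FPKM in them.

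In the Hippo pathway, which controls TEAD4, 13 of 15 listed genes were tested in the embryo comparisons, and 1 was higher and 2 were lower in KO arrest than in control embryo, a share near the 25.2% of all genes called. Yap1 was at 33.5, 18.9 and 13.1 FPKM in KO arrest libraries, 67.7, 64.9 and 63.0 FPKM in KO embryo libraries, and 60.6 and 71.9 FPKM in control embryo libraries. The KO arrest libraries with high Tead4 were thus those with low Yap1. Yap1 was lower in KO arrest than in control embryo (−1.65 ± 0.46, adjusted p = 0.0240) and than in KO embryo (−1.63 ± 0.41, adjusted p = 0.0345).

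Stk3, which encodes the Hippo kinase MST2, was lower as well, at 3.22 ± 3.18 FPKM in KO arrest and 28.7 ± 5.85 FPKM in control embryo (−3.15 ± 0.71, adjusted p = 0.00986), and lower than in KO embryo at 18.4 ± 2.49 FPKM (−2.54 ± 0.64, adjusted p = 0.0346). Lats1 was higher in KO arrest, at 4.79 ± 0.692 FPKM, than in control embryo at 0.466 ± 0.257 FPKM (1.99 ± 0.60, adjusted p = 0.0337). Against control embryo, the Stk3 call was kept under all 19 alternatives (−3.74 without KO arrest 1 and −2.46 without KO arrest 3), while the Yap1 call was lost in 6, among them without KO arrest 2 (adjusted p = 0.0647) or 3 (0.0664). The Lats1 call was lost in 13, among them without any 1 KO arrest library (0.0654 to 0.0907) and without KO embryo 1 (0.0508), KO embryo 3 (0.0554) or control embryo 1 (0.102). Against KO embryo, the Yap1 call was lost in 9 and the Stk3 call in 8, each of them without KO arrest 2, KO arrest 3 or any 1 KO embryo library (adjusted p of 0.0886 to 0.114), and Stk3 was −1.85 without KO arrest 3. In KO embryo against control embryo limma called 0 of the 13 Hippo genes, where 6.36% of all genes tested were called. Of the 13, 5 had an unadjusted p under 0.05 (Amot, Lats1, Stk4, Tead2 and Wwtr1). The share of all genes at that cut was not computed, so this count and those at the same cut below cannot be read as high or low.

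Of 9 further trophoblast regulators, 7 were tested, and 2 were called in KO arrest against control embryo, again near the 25.2% of all genes called. Klf5, a factor needed for trophectoderm, was higher, at 32.3 ± 12.9 FPKM in KO arrest and 7.71 ± 4.40 FPKM in control embryo (1.96 ± 0.54, adjusted p = 0.0235), and Tfap2a, the AP-2 alpha gene, was lower, at 0.0585 ± 0.0673 FPKM in KO arrest and 2.77 ± 1.14 FPKM in control embryo (−1.80 ± 0.57, adjusted p = 0.0402). Of 23 genes for junctions, channels and filaments of the trophectoderm epithelium, 18 were tested. Of these, 1 was called in KO arrest against control embryo, where 25.2% of all genes were, and 2 against KO embryo, where 8.58% were. Cldn7, a tight junction claudin, was higher in KO arrest, at 34.4 ± 17.0 FPKM, than in KO embryo at 2.47 ± 2.19 FPKM (3.53 ± 0.89, adjusted p = 0.0359) and than in control embryo at 3.52 ± 4.98 FPKM (3.51 ± 1.00, adjusted p = 0.0268). Aqp9, a water and glycerol channel gene, was at 107.1 ± 23.5 FPKM in KO arrest and 36.5 ± 11.04 FPKM in KO embryo (1.55 ± 0.37, adjusted p = 0.0286). These calls were each lost in 9 or 10 of 18 or 19 alternatives. Those of Klf5, Tfap2a and Cldn7 against control embryo were lost without KO arrest 2, KO arrest 3 or control embryo 1 (adjusted p of 0.0616 to 0.181), that of Tfap2a also without KO arrest 1 (0.0835) or KO embryo 3 (0.0623). Leaving out control embryo 1 put Cldn7 at 2.01, and leaving out control embryo 2 put it at 5.01. Those of Aqp9 and Cldn7 against KO embryo were lost without any 1 of the 6 knock out libraries (0.0555 to 0.137), with Cldn7 at 2.79 without KO embryo 2. In KO embryo against control embryo limma called 0 of 7 trophoblast, 0 of 18 epithelium and 0 of 11 primitive endoderm genes. Of all genes tested 6.36% were called there, so in lists this short these counts cannot be read as low. An unadjusted p under 0.05 was reached by 1, 3 and 4 of them, in that order. Between KO arrest and KO embryo 0 of the 7 trophoblast regulators were called, with 1 at an unadjusted p under 0.05. The share of all genes at that cut was not computed.

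Of the 22 further primitive endoderm genes 11 were tested in embryos, of which 2 were called in KO arrest against control embryo (25.2% of all genes) and 1 against KO embryo (8.58%). Sparc, a secreted matrix protein gene abundant in endoderm, was lower in KO arrest. It averaged 0.806 ± 0.131 FPKM in KO arrest, 21.2 ± 4.16 FPKM in KO embryo and 12.5 ± 7.38 FPKM in control embryo, with log2 fold changes of −3.61 ± 0.52 against KO embryo (adjusted p = 0.00478) and −2.78 ± 0.58 against control embryo (adjusted p = 0.00710), both kept under all 19 alternatives, the last with −3.37 without control embryo 1 and −2.19 without control embryo 2. Sparc is also made by fibroblasts, whose markers were lowest in the same KO arrest libraries, and their part in the lower Sparc was not tested. Grb2, the adaptor through which FGF signals reach the primitive endoderm, was higher in KO arrest, at 26.9 ± 14.4 FPKM, than in control embryo at 4.26 ± 3.84 FPKM (2.45 ± 0.68, adjusted p = 0.0247), a call lost in 9 of 19 alternatives, among them without KO arrest 2 (0.0829), KO arrest 3 (0.0830) or control embryo 1 (1.63, adjusted p = 0.135). The KO arrest libraries, with Gata6 at 12.02 FPKM or more, held the endoderm receptor gene Pdgfra at 0, 0.956 and 0 FPKM. Pdgfra was picked from the list after its values were seen, and other genes of the list differed. In the same libraries Dab2, an adaptor gene, was at 2.00 to 10.5 FPKM. It was at 2.37 to 4.04 FPKM in KO embryo and at 15.2 and 21.9 FPKM in control embryo libraries. Every KO arrest library was thus below both control embryo libraries for Dab2, without a call. Fgfr1, an FGF receptor gene, was at 1.45 to 4.83 FPKM in KO arrest libraries. It was at 0.178 to 1.70 FPKM in KO embryo and at 0.838 and 1.36 FPKM in control embryo libraries. Foxa2 was at 0 in every embryo library.

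In ES cells, knock down of Dcaf11 went with lower Tead4. Tead4 was at 4.95 and 5.69 FPKM in KD ESC libraries, against 13.6 and 14.1 FPKM in control ESC libraries, a log2 fold change of −1.23 ± 0.13 (adjusted p = 0.0314). Both KD ESC libraries were below both control ESC libraries. Tead4 was the only one of 7 tested genes of the set that was called, where 6.23% of all 12264 genes tested were called, 3.64% lower and 2.59% higher. The call was lost with all 12 libraries in 1 fit (adjusted p = 0.822), with a block for replicate number (0.0811), and when leaving out KD ESC 1 (0.0534), control ESC 1 (0.186) or control ESC 2 (0.180).

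The other 6 tested genes were not called in ES cells. Eomes was at 6.35 and 7.09 FPKM in KD ESC and 8.31 and 10.3 FPKM in control ESC (−0.41 ± 0.16, adjusted p = 0.180), Krt8 at 1.64 and 4.85 FPKM in KD ESC and 5.46 and 6.57 FPKM in control ESC (−0.83 ± 0.42, adjusted p = 0.264), and Gata4 at 0.621 and 0.373 FPKM in KD ESC and 1.83 and 1.15 FPKM in control ESC (−0.72 ± 0.25, adjusted p = 0.1499). These 3 and Tead4 separated the groups downwards, as 37.1% of all tested genes did. Krt18 was at 1.63 and 1.08 FPKM in KD ESC and 0.354 and 0.249 FPKM in control ESC (0.84 ± 0.24, adjusted p = 0.105), and it and Gata3 separated the groups upwards, as 25.3% of all tested genes did. Tfap2c was at 46.8 and 15.5 FPKM in KD ESC and 25.7 and 28.0 FPKM in control ESC, so that the KD ESC values lay on either side of the control ESC values (0.01 ± 0.53, adjusted p = 0.988). Cdx2, with the values given above, had −0.35 ± 0.44 (adjusted p = 0.631). The median over the 7 was −0.41, against −0.09 over all genes tested. Gata3 (0.811 and 1.11 FPKM in KD ESC, 0.625 and 0.216 FPKM in control ESC), Gata6 (0 and 0.510 FPKM in KD ESC, 0.773 and 0.0871 FPKM in control ESC) and Sox17 (0 and 0.161 FPKM in KD ESC, 0 in both control ESC) did not pass the filter.

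Among Hippo genes, all 15 tested in ES cells, Wwtr1, the second TEAD cofactor gene, was lower together with Tead4. Wwtr1 was at 7.02 and 5.92 FPKM in KD ESC and 18.3 and 20.8 FPKM in control ESC (−1.46 ± 0.14, adjusted p = 0.0300). Amotl2, an angiomotin gene, was lower too, at 18 ± 0.889 FPKM in KD ESC and 27.4 ± 0.0807 FPKM in control ESC (−0.58 ± 0.10, adjusted p = 0.0494). Of 20 tested epithelium genes Dsp, a desmosome gene, was higher, at 26.2 ± 2.45 FPKM in KD ESC and 14.2 ± 0.736 FPKM in control ESC (0.84 ± 0.12, adjusted p = 0.0405). Ctnnb1, the beta-catenin gene, was lower, at 33.6 ± 13.8 FPKM in KD ESC and 142.6 ± 15.7 FPKM in control ESC (−2.11 ± 0.30, adjusted p = 0.0407). Of 11 tested primitive endoderm genes Lamc1, a laminin gene, was lower, at 70.8 ± 1.49 FPKM in KD ESC and 97.3 ± 3.98 FPKM in control ESC (−0.45 ± 0.08, adjusted p = 0.04996). Of all 12264 genes tested in ES cells 6.23% were called, 3.64% lower and 2.59% higher. Among trophoblast regulators 0 of 6 tested were called, which at that share cannot be read as low. Of the 6, 2 had an unadjusted p under 0.05, a cut for which no share of all genes was computed. The calls named here rest on 2 libraries a group. Of 14 alternatives 12 ended the call of Amotl2, 12 that of Lamc1, 7 that of Dsp, 6 that of Ctnnb1 and 4 that of Wwtr1. All 5 were lost without control ESC 1 or 2 (adjusted p of 0.157 to 0.247). Leaving out KD ESC 1 ended the calls of Dsp, Amotl2 and Lamc1 (0.0793 to 0.0984), and leaving out KD ESC 2 those of Amotl2 and Lamc1 (0.0612 and 0.0621). All 10 pluripotency markers were at 1 FPKM or more in each ES library. However, 3 of the 10 were called lower in KD ESC, namely Klf4 (−0.84 ± 0.08, adjusted p = 0.0285), Pou5f1 (−0.50 ± 0.06, adjusted p = 0.0352) and Dppa5a (−0.80 ± 0.12, adjusted p = 0.0424). Of the 10, 6 had both KD ESC libraries below both control ESC libraries, as 37.1% of all tested genes did. Of all tested genes 3.64% were called lower. How these 3 calls held under the alternatives was not examined. The part of the pluripotency markers in the lower Tead4 and Wwtr1 was not tested. Oocyte markers summed to 2.18 to 3.42 FPKM in the ES libraries. The 8 fibroblast markers summed to 52.9 and 47.5 FPKM in KD ESC and 75.3 and 76.3 FPKM in control ESC. Of these 8, 6 were tested, all with log2 fold changes below 0, and 1 was called lower. Groups separated downwards for 5 of the 8, tested or not, as they did for 37.1% of all tested genes. The part of fibroblasts in the lower genes above was not tested.

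Tead4 and Gata4 separated the groups in opposite directions in the 2 materials. Every KO embryo library was above both control embryo libraries, and both KD ESC libraries were below both control ESC libraries. Of all tested genes 24.2% separated upwards in the embryos and 37.1% downwards in the ES cells, and the share doing both was not computed. Gata4 was not called in ES cells, where it was near the filter limit, at 0.621 and 0.373 FPKM in KD ESC and 1.83 and 1.15 FPKM in control ESC. The difference of the effects, KO embryo over control embryo minus KD ESC over control ESC, was 3.22 ± 0.74 for Tead4 (adjusted p = 0.0528) and 2.32 ± 0.63 for Gata4 (adjusted p = 0.0877) in a limma fit of all 12 libraries. It was 3.23 ± 0.95 for Tfap2c (adjusted p = 0.107) and −1.82 ± 0.80 for Krt18 (adjusted p = 0.263). None of the 9 tested genes was called, where 2.69% of all 14447 genes tested were, 2.06% higher and 0.623% lower. Tead4, Gata4, Tfap2c and Krt18 had an unadjusted p under 0.05, a cut for which no share of all genes was computed. The Tead4 difference was called with TPM in place of FPKM (3.81, adjusted p = 0.0390), with only the 4 groups compared in the fit (0.0229), and without KO arrest 1 (0.0355), KO arrest 3 (0.0173) or control embryo 2 (0.0225). For Wwtr1 the difference of effects was 3.74 ± 0.84 (adjusted p = 0.0489), with 6.995, 17.2 and 6.22 FPKM in KO embryo and 0.293 and 2.38 FPKM in control embryo libraries. It was lost in 19 of 22 alternatives, among them each that left out 1 library other than control embryo 2 (adjusted p of 0.051 to 0.200), with 3.05 without control embryo 1 and 4.43 without control embryo 2. The control embryo libraries also decided other calls of this kind: without control embryo 2 the differences for Tfap2c (4.37) and Gata4 (2.64) were called, and without control embryo 1 those for Gata3 (−3.59) and Krt18 (−2.90).

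Control embryo and control ESC libraries differed in 6 of 9 tested genes of the set, where 53.4% of all 14447 genes tested were called, 40.8% lower in control embryo and 12.6% higher. Strain, material and input differ between these groups and cannot be told apart. Gata4 was higher in control embryo, at 8.49 ± 2.92 FPKM, than in control ESC at 1.49 ± 0.485 FPKM (1.91 ± 0.47, adjusted p = 0.00633). Krt8 was lower in control embryo, with 0.1498 and 0 FPKM, than in control ESC at 6.02 ± 0.782 FPKM (−2.71 ± 0.37, adjusted p = 0.000199). Tead4 was lower at 0.654 ± 0.460 FPKM, against 13.8 ± 0.400 FPKM in control ESC (−3.19 ± 0.55, adjusted p = 0.000838), as was Tfap2c at 2.82 ± 3.57 FPKM, against 26.8 ± 1.57 FPKM in control ESC (−3.28 ± 0.70, adjusted p = 0.00309). Eomes was lower at 2.22 ± 2.91 FPKM, against 9.29 ± 1.39 FPKM in control ESC (−2.05 ± 0.64, adjusted p = 0.0203). Cdx2 was called lower (adjusted p = 0.0270), with both control embryo libraries at 0 and control ESC libraries at 0.671 and 1.10 FPKM. Cdx2 was at 0 in every embryo library. It passed the filter only through KD ESC 2 (1.17 FPKM) and control ESC 2 (1.10 FPKM), so no weight is put on its call. Krt8, Tead4, Tfap2c, Eomes and Cdx2 lay below both control ESC libraries in both control embryo libraries, as 55.2% of all tested genes did. Gata4 lay above, as 19.2% did.

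Gata3 (adjusted p = 0.222), Gata6 (0.429) and Krt18 (0.343) were not called between control embryo and control ESC, and Sox17 was not tested. Other scalings called them higher in control embryo: Gata6 under quantile scaling (1.63, adjusted p = 0.00847) and with the length trend removed (1.59, 0.0272), Gata3 under the same settings (0.0250 and 0.0363), and Krt18 with the length trend removed (0.0251). Their means turned to lower in control embryo without control embryo 2 (Gata3 −0.37, Gata6 −0.23 and Krt18 −0.38, none called). The Tead4 call was kept under all 22 alternatives, those of Gata4, Krt8 and Tfap2c under 21 of 22 each, that of Eomes under 14 of 22 and that of Cdx2 under 12 of 17. Control embryo 1 set several of these values: without it Eomes was −0.96 (adjusted p = 0.133) and Tfap2c −2.13, Gata3 and Krt18 were called higher at 3.41 and 1.78, and the Cdx2 call was lost (adjusted p = 0.0771). Leaving out control ESC 1 or 2 ended the Eomes call (adjusted p = 0.0635 and 0.0962), and leaving out control ESC 2 that of Gata4 (0.0524). Without control embryo 2 Eomes was −3.14, Tfap2c −4.42 and the Cdx2 call was lost as well (adjusted p = 0.0661).

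The wider lists were mostly lower in control embryo than in control ESC. Of 15 Hippo genes 10 were lower, led by Amotl2, Amotl1 and Lats1, and 3 were higher, namely Yap1 (66.3 ± 7.98 FPKM in control embryo and 11.9 ± 0.332 FPKM in control ESC), Stk3 and Amot, the last pair with calls lost in 14 and 13 of 22 alternatives. Of 8 tested trophoblast regulators 4 were lower, led by Klf5, Ets2 and Msx2. Of 22 tested epithelium genes 14 were lower, among them Cldn4 and Krt19, and 2 were higher, Aqp9 (65.6 ± 4.20 FPKM in control embryo, listed at 0 in control ESC) and Ocln, whose call was lost in 10 of 22. Of 15 tested primitive endoderm genes 10 were lower, led by Lama1, Lamc1 and Sparc, and Dab2, an endocytic adaptor gene of the primitive endoderm, was higher at 18.6 ± 4.78 FPKM, against 0.704 ± 0.428 FPKM in control ESC (3.52 ± 0.59, adjusted p = 0.000760). Of all 14447 genes tested 40.8% were called lower in control embryo and 12.6% higher, and the 4 of 8 trophoblast regulators are near the first share. The median over all genes tested was −1.01 on the log2 scale, so the counts of these lists sit on a general shift.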

How the data were processed

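Expression was measured in 12 Smart-seq2 libraries. The authors deposited, per gene and library, an FPKM value, a TPM value and a read coverage signal. The submitters' processing notes name mm9 as the build and, as tools, StringTie, DESeq2 and STAR with version 0.6.0. What each did, with which annotation, no source used here states, and no read counts were used. FPKM was summed per symbol, and rows without a symbol (227 to 339 per library, 0.549% to 1.19% of FPKM) were left out. The deposited TPM is FPKM times 1 factor per library (1.78 to 2.93) and served as an alternative. Coverage divided by FPKM gives relative depth only, so no counting interval can be given. Read strand is not stated.

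KO arrest, KO embryo and control embryo were compared in 1 limma fit of 8 libraries, KD ESC and control ESC in a fit of 4, and the other contrasts in a fit of 12 (limma 3.58.1, R 4.3.3, variance trend, log2(FPKM + 1), at least 1 FPKM in at least 2 libraries, Benjamini-Hochberg over all genes kept). The code was tested on simulated data. Tables used pandas 2.3.3 and numpy 2.4.6 in Python 3.11.15, and figures matplotlib 3.10.9. All 10 genes are reported, and from each wider list the 3 genes with the smallest p in each direction among those called, of which 1 is not reported here. Dcaf11 is given in every library, and Pdgfra, Fgfr1, Foxa2, Pou5f1, Sox2, Nanog, Tdgf1, Klf4 and Dppa5a were named after their values were seen. The genes and lists were chosen with earlier results of these data known. Alternatives were a pseudocount of 0.1, no filter, a filter at 5 FPKM, TPM, scaling by quantiles or by median of ratios, fits of fewer or more groups, a block for the replicate number, library weights, each library left out, and, added after seeing the data, removal of the trend with gene length (GENCODE lengths of GRCm38, matched by symbol for 93.7%). A group left with 1 library is assumed to vary like the others.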

Additional observations from a re-analysis of the deposited data

Results flagged for a closer look

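Tead4 and Gata4 were singled out because the libraries moved opposite ways in the 2 materials, higher in every KO embryo library than in control embryo and lower in both KD ESC libraries than in control ESC. Of all tested genes 24.2% separated upwards in that embryo comparison and 37.1% downwards in that ES comparison. The tested difference of the effects on the log2 scale was 3.22 for Tead4 (adjusted p = 0.0528) and 2.32 for Gata4 (adjusted p = 0.0877), so neither passed the threshold in the limma fit of all 12 libraries. Wwtr1, the TEAD cofactor gene, was singled out because its difference of effects did pass, at 3.74 (adjusted p = 0.0489), by a margin that 19 of 22 alternatives removed. No group had the 4 libraries needed to test a single library as an outlier.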

How the results depend on the processing

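Which of the 10 genes were called was steadiest in KO arrest: against control embryo 3 were called whichever library was left out, and against KO embryo 1 was called, or 2 with no filter, which added Krt8. In KO embryo against control embryo the count of 1 became 0 with no filter, with only the 2 groups in the fit, and with library weights, 3 when all 12 libraries shared a fit (adjusted p = 0.0307 for Tead4 and 0.0384 for Gata4), and 0 to 1 with 1 library left out. In KD ESC against control ESC the count of 1 became 0 with all 12 libraries and 0 to 1 with 1 left out. In control embryo against control ESC the count of 6 became 3 with only those groups and 3 to 6 with 1 left out. It was 7 with the length trend removed, which added Gata3, Gata6 and Krt18 and lost Cdx2 and Eomes, and 5 with quantile scaling, which added Gata3 and Gata6 and lost Cdx2, Eomes and Krt8. In the difference of effects the count of 0 became 1 with TPM and with only the groups compared, and 0 to 3 with 1 left out. Cdx2 in control embryo against control ESC, -0.91, turned to 0.0506 (adjusted p = 0.920) with the length trend removed, the 1 reversed value. The cause of these changes was not tested.

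Same-numbered libraries did not deviate together over all genes (correlations of -0.0995 to 0.0246). A correlation over all genes cannot exclude a pairing that acts on some of them, so none was assumed in the main fits. With the replicate number as a block the count was 0 in KO embryo against control embryo (Tfap2c 3.34, adjusted p = 0.0620) and 0 in KD ESC against control ESC, and it moved the calls over all genes from 750 to 76, 2976 to 1965, 1012 to 550, 764 to 26 and 388 to 127 in the comparisons as ordered below.

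Counts over all genes moved by more than 1.5 times in other settings too. KO embryo against control embryo had 750, but 269 with no filter, 228 with only its groups, 1709 with 12 libraries, 82 with weights and 87 to 1817 with 1 left out. KO arrest against control embryo had 2976, but 1505 with weights and 1983 to 3636 with 1 left out. KO arrest against KO embryo had 1012, but 456 with no filter, 2030 with only its groups, 2081 with 12 libraries, 2555 with weights and 285 to 2023 with 1 left out. KD ESC against control ESC had 764, but 313 with no filter, 431 with TPM, 93 with 12 libraries and 13 to 686 with 1 left out. The difference of effects had 388, but 257 with a pseudocount of 0.1, 249 with the length trend removed and 39 to 2020 with 1 left out. The share of calls that were higher moved by over 10 percentage points under other scalings, given here as FPKM and then median of ratios, quantile and length trend removed. It was 76.4%, then 35.8%, 56.9% and 53.2% in KO embryo against control embryo, 64.9%, then 45.2%, 48.9% and 48.5% in KO arrest against control embryo (50% with TPM), 23.6%, then 37.6%, 45.7% and 49.1% in control embryo against control ESC, and 76.8%, then 39%, 61.9% and 53% in the difference of effects. In KO arrest against KO embryo 57.4% became 29% with TPM, 47.1% with quantile scaling and 46.5% with the length trend removed, and in KD ESC against control ESC 41.6% became 55.1% with median of ratios and 56% with the length trend removed. Median of ratios moved the median of all genes by -0.36 in KO embryo and -0.42 in KO arrest against control embryo, TPM by -0.35 in both KO arrest comparisons, and quantile scaling by 0.93 in control embryo against control ESC. No scaling turned the direction of a called Tfap2c, Tead4 or Gata6.

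Limits: 2 or 3 libraries a group, no counts, and unknown stage bound every statement, and genes under 1 FPKM rest on little coverage.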

Other observations

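The pluripotency markers used above for the ES cells did not move as 1 group in the KO arrest libraries in which Gata6 was high. Of 10 such genes tested, 3 were higher and 2 lower in KO arrest than in control embryo, where 16.4% of all genes tested were called higher and 8.87% lower, and 2 were higher and 0 lower than in KO embryo, where 4.93% were called higher and 3.65% lower. Nanog was at 6.40, 4.61 and 10.9 FPKM in KO arrest libraries, 0, 0.633 and 0 FPKM in KO embryo libraries, and 0.392 and 1.46 FPKM in control embryo libraries, and it was called higher in KO arrest than in KO embryo (log2 fold change 2.75 ± 0.56, limma, adjusted p = 0.0170). Tdgf1, a Nodal co-receptor gene, was at 23.4, 97.0 and 96.7 FPKM in KO arrest libraries, 0.537, 0.670 and 4.14 FPKM in KO embryo libraries and 0 in both control embryo libraries (4.70 ± 0.72 against KO embryo, adjusted p = 0.00578). Sox2 was at 1.02, 0.772 and 0.283 FPKM in KO arrest libraries, 2.18, 0.296 and 1.14 FPKM in KO embryo libraries, and 14.1 and 5.19 FPKM in control embryo libraries, and was called lower in KO arrest than in control embryo (−2.54 ± 0.67, adjusted p = 0.0191). Pou5f1 was at 6.15, 5.76 and 4.70 FPKM in KO arrest libraries, 2.06, 1.40 and 1.22 FPKM in KO embryo libraries, and 0.663 and 8.10 FPKM in control embryo libraries, with no call among these groups. Dppa5a was called higher and Klf4 lower in KO arrest than in control embryo. Dppa5a averaged 1658 ± 291 FPKM in KO arrest, 2506 ± 720 FPKM in KO embryo and 648 ± 39.6 FPKM in control embryo (SD). It was called higher in KO embryo than in control embryo as well, so its higher level was not limited to KO arrest. How the calls of Nanog, Tdgf1, Sox2, Dppa5a and Klf4 held under the alternatives was not examined.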
